A study of Mus musculus with 13 samples.

Results

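The genes of drug metabolism described here are those that the array's design named as cytochrome P450 (Cyp), UDP-glucuronosyltransferase (Ugt), cytosolic sulfotransferase (Sult) or glutathione S-transferase (Gst) genes, chosen by the form of their symbols and not by their values. The array carried 150 such genes of 36163 in all, and 103 of them passed the filter on dim probes (signal well above background on 2 or more of 13 arrays), against 25413 of all genes. The 103 measured members were 66 Cyp, 10 Ugt, 7 Sult and 20 Gst genes, each read from its brightest probe. The samples were colorectal tissue of CPC-Apc mice, in which a CDX2P-NLS Cre transgene, driven by a Cdx2 promoter in gut epithelium, deletes 1 copy of a floxed Apc allele (Apc+/loxP), so that all 4 groups carried the same genotype and normal tissue was not from mice without the deletion. Control mice received a negative control microRNA, and microRNA mice received miR-200c, miR-302 a to d and miR-369-3p and -5p at 25 µg of each, both carried by super carbonate apatite and given into the tail vein 3 times a week, 24 times in all, starting at an age of 8 weeks. The groups were normal tissue of control mice (2 arrays), normal tissue of microRNA mice (2), tumors of control mice (7) and tumors of microRNA mice (2). No label tied a sample to an animal, so the p-values rest on sample-to-sample spread alone, and some samples may share a mouse.

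The 4 families act in sequence on drugs, dietary compounds, steroids, bile acids and fatty acids. Cytochrome P450 enzymes oxidize them, and the transferases attach glucuronic acid, sulfate or glutathione, which makes them easier to export. In the gut these enzymes are best known in the absorptive cells that face the lumen, where they form the first chemical barrier against what is eaten. Several families arose by repeated duplication in rodents and lie in clusters of closely similar genes.

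Levels below are the log2 of an array's processed signal minus the log2 of its 75th percentile. A difference between tumor and normal tissue is a log2 difference of these levels. Over both groups of mice it is the estimate of a model that held treatment, so it can depart from the gap between plain means. The 75th percentile was 214 to 320 on normal arrays and 415 to 740 on tumor arrays, so the scaling itself moved with the tissue. The 13 arrays lay on 2 slides, slide 2 holding 3 of the 4 normal arrays and 2 of the 9 tumors. Samples are named by their group and replicate number. The 3 arrays control tumor 1 (-1.57), control tumor 5 (-4.53) and microRNA normal 2 (-0.50) stood apart in Hoxb13, a gene of the distal colon, against 5.65 to 6.63 on the other 10. The mean of 5 distal colon Hox markers, Hoxb13 among them, was lowest on the same arrays (-4.73, -5.17 and -3.36). By that mean the split was less sharp. Control tumor 4 (-2.33) and microRNA tumor 2 (-1.46) lay between them and the rest (-0.30 to 1.32). Xist was well above background on 2 arrays only, control normal 2 and control tumor 3. Of 9 mature colonocyte markers, 7 were lower in tumors, with a mean level of 5.64 to 6.49 in the 4 normal arrays, 1.22 to 5.28 in control tumors and 3.31 to 3.68 in microRNA tumors. Of 7 general epithelial markers, 3 were lower (Epcam -0.28, limma adjusted p = 0.32). All 8 smooth muscle markers and all 7 measured adipocyte markers were lower in tumors as well, and 5 of 6 neutrophil and 3 of 6 fibroblast markers were higher. Of 8 squamous epithelium markers, 6 were lower in tumors. Their mean was -0.03 to 1.83 in control normal tissue and -3.70 to -2.98 in the other groups, microRNA normal tissue among them. In bulk tissue, fewer cells of a type and less RNA per cell cannot be told apart, and the part of these cell types in the results below was not tested.

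Tumors carried less RNA of most drug metabolism genes than normal tissue. Over both groups of mice, 55 of the 103 measured members were lower in tumors, 3 were higher and 45 were not called (limma, Benjamini-Hochberg adjusted over all 25413 genes, threshold 0.05). Among all genes tested, 19.7% were lower and 11.7% were higher. The median difference was -1.45 over the members and -0.11 over all genes. By family, 8 of 10 Ugt genes (median -3.10), 6 of 7 Sult genes (median -1.94), 14 of 20 Gst genes (median -1.43) and 27 of 66 Cyp genes (median -1.02) were lower, and the 3 higher ones were all Cyp genes. These counts are over the members that passed the filter on dim probes, and 4 of those (Cyp2j11-ps, Cyp3a44, Cyp3a57 and Cyp3a59) were not well above background in any tumor. Cyp3a16, Cyp3a25 and Ugt8a, also called lower, were well above background in 1 tumor each, while the filter asked for 2 arrays.

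**Figure D1:**
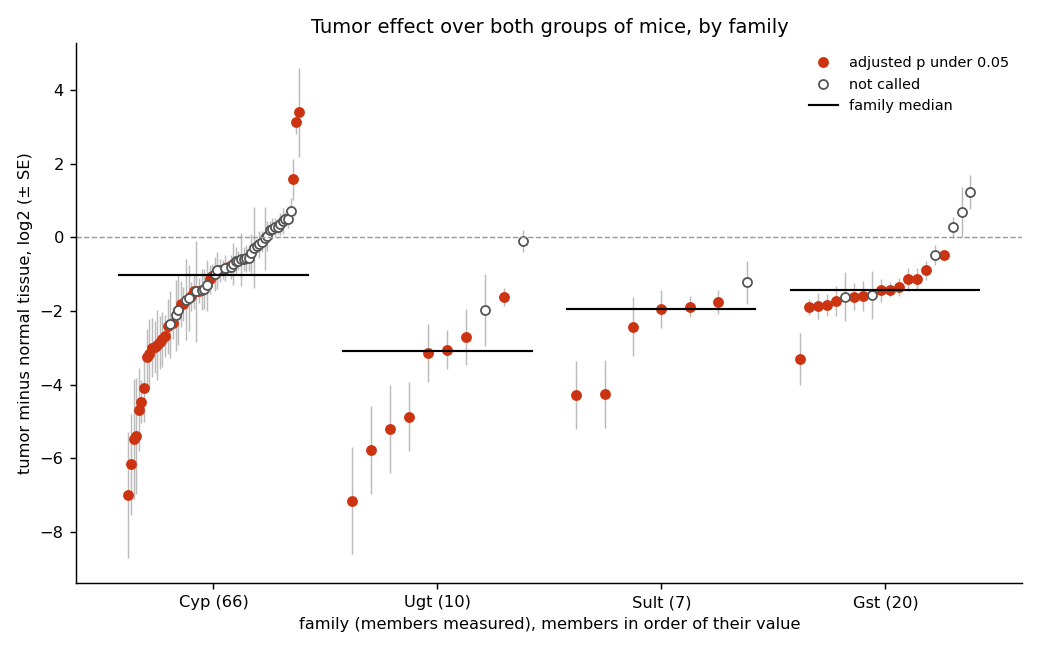
Tumor minus normal difference (log2, vertical axis, ± SE) of each of the 103 measured members over both groups of mice, by family. Filled points passed an adjusted p of 0.05, open points did not, and the horizontal line is the family's median (Ugt -3.10, Sult -1.94, Gst -1.43, Cyp -1.02); all 10 Ugt and all 7 Sult points lie below 0.

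The balance of falls and rises depended on the scaling. With quantile normalization 51 members were lower and 5 higher, with median scaling 51 and 3, with normexp background correction 72 and 4, and without any scaling between arrays 26 and 17, when the median of all genes was 0.89 in place of -0.11. The share of falls among all called genes was 62.7% as reported, 48.4% with quantile normalization, 49.3% with median scaling, 79.2% with normexp and 4.54% without scaling. Without control normal 2 alone, 29 members were lower and 1 was higher, and without the 2 arrays that showed Xist 30 and 1, when 15.1% and 16.3% of all genes were called in place of 31.4%. Within slide 2 alone 53 were lower and 4 higher (19.3% of all genes called), and within slide 1 alone, which has 1 normal array, 1 was lower and 0 were higher (0.0394%).

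The largest fall among the members was that of Ugt2b5, a glucuronosyltransferase. Ugt2b enzymes attach glucuronic acid to steroids, bile acids and fatty acids. The levels of Ugt2b5 in normal tissue were 1.13 and 2.49 in control mice and 1.67 and 1.84 in microRNA mice, and in the 9 tumors they ran from -7.04 through a median of -6.22 to 1.00. Control tumors 1 (1.00) and 5 (-0.79) were the only tumors well above background, and both lay below every normal array. The means were 1.78 ± 0.56 (SD, n = 4) in normal tissue and -5.02 ± 2.97 (SD, n = 9) in tumors. The fitted difference, with treatment held, was -7.15 (SE 1.45, limma adjusted p = 0.00458). Ugt2b36 was -0.41, 0.77, 0.24 and 0.74 in normal tissue and -6.89, -6.30 and -0.52 (lowest, median, highest) in tumors, of which 2 of 9 were well above background (difference -5.78, SE 1.18, limma adjusted p = 0.00482). Ugt2b37 stood at -0.10, 1.05, 0.34 and 0.59 in normal tissue and between -6.48 and -0.45, median -5.57, in tumors, of which 3 of 9 were well above background (-5.20, SE 1.19, limma adjusted p = 0.00797). The size of these 3 falls rests in part on background signal in the other tumors.

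The Ugt2b genes lie side by side on chromosome 5 and are close in sequence, so the probes were compared with each other. Among the 5253 pairs of member probes, 3 pairs matched at 80% or more of the overlapping bases. The pair below reads members of the Ugt2b cluster with large falls, at chr5:87669707-87669766 (Ugt2b37) and chr5:87554155-87554214 (Ugt2b5) on mm9, and 46 of 55 overlapping bases matched. Capitals mark the bases that differ.
Ugt2b37: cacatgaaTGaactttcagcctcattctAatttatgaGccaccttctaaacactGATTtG
Ugt2b5: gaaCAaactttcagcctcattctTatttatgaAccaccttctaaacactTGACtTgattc
Control tumor 6 was well above background for Ugt2b37 and not for Ugt2b5, while the other 12 arrays had the same flag for both. A part of either signal may come from the other transcript, which these arrays cannot separate.

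Ugt2b38 was well above background on all 13 arrays. Its levels were 2.07, 3.24, 2.64 and 2.79 in normal tissue and -3.56, -3.00 and 1.73 (lowest, median, highest) in tumors, again with control tumors 1 and 5 as the highest (difference -4.87, SE 0.93, limma adjusted p = 0.00352). Ugt2b37 and Ugt2b38, neighbours among the measured Ugt2b genes and both lower in tumors, have nearly the same RefSeq promoter window, 250 bases before to 50 after the gene's start: 271 of 286 aligned bases matched (94.8%). The windows are chr5:87254739-87255038 and chr5:87424154-87424453, both on the minus strand of GRCm38.p6, and capitals mark the bases that differ.
Ugt2b37: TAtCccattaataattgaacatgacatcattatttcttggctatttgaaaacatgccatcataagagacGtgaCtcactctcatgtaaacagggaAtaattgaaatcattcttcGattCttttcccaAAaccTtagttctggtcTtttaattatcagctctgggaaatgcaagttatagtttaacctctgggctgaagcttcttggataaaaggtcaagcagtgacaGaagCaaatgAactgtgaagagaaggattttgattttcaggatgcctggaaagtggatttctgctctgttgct
Ugt2b38: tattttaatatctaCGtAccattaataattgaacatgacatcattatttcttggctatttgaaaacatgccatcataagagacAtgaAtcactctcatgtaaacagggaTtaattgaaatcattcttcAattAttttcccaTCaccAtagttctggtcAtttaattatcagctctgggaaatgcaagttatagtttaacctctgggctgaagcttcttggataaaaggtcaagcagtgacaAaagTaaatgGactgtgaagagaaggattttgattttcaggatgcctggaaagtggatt

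Ugt2b34 had a smaller and more even fall, from 5.36, 5.88, 5.65 and 5.40 in normal tissue to 3.31, 4.01 and 4.42 (lowest, median, highest) in tumors (difference -1.63, SE 0.25, limma adjusted p = 0.00122). Its level had an SD of 0.42 among the 9 tumors, against 2.97 for Ugt2b5. Ugt2b35 was the exception in the subfamily, at -0.29 to 0.19 in normal tissue and -0.99 to 0.76 in tumors (-0.10, SE 0.29, limma adjusted p = 0.812), and its probes differed in sign. The Ugt1a genes conjugate bilirubin and phenols and share their 3′ exons. The Ugt1a6b and Ugt1a6a probes lie close together (chr1:90115493-90115552 and chr1:90116514-90116573 on mm9), and their signal cannot be assigned to 1 member with certainty. The Ugt1a10 probe lies apart from them, at chr1:89952780-89952839. A dimmer Ugt1a6b probe at chr1:90004249-90004308 gave -4.10. Which exon each probe reads was not tested. Ugt1a6b was 6.40, 7.30, 7.03 and 7.40 in normal tissue and 1.82, 3.82 and 6.39 (lowest, median, highest) in tumors (-3.14, SE 0.79, limma adjusted p = 0.0121, and 0.0572 without control normal 2). Ugt1a10 ran from 1.25 to 1.75 in normal tissue and from -3.41 to 1.15 in tumors (-2.70), and Ugt1a6a did not pass the test (-1.98, limma adjusted p = 0.137). The call for Ugt1a10 (adjusted p = 0.0196) was lost without control normal 1 (0.0600) or control normal 2 (0.0836). Ugt8a, which makes galactosylceramide, was -3.04, -1.83, -1.88 and -2.26 in normal tissue and -6.56, -5.43 and -3.59 in tumors, where 1 of 9 arrays was well above background (-3.06, SE 0.53, limma adjusted p = 0.00226).

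**Figure D2:**
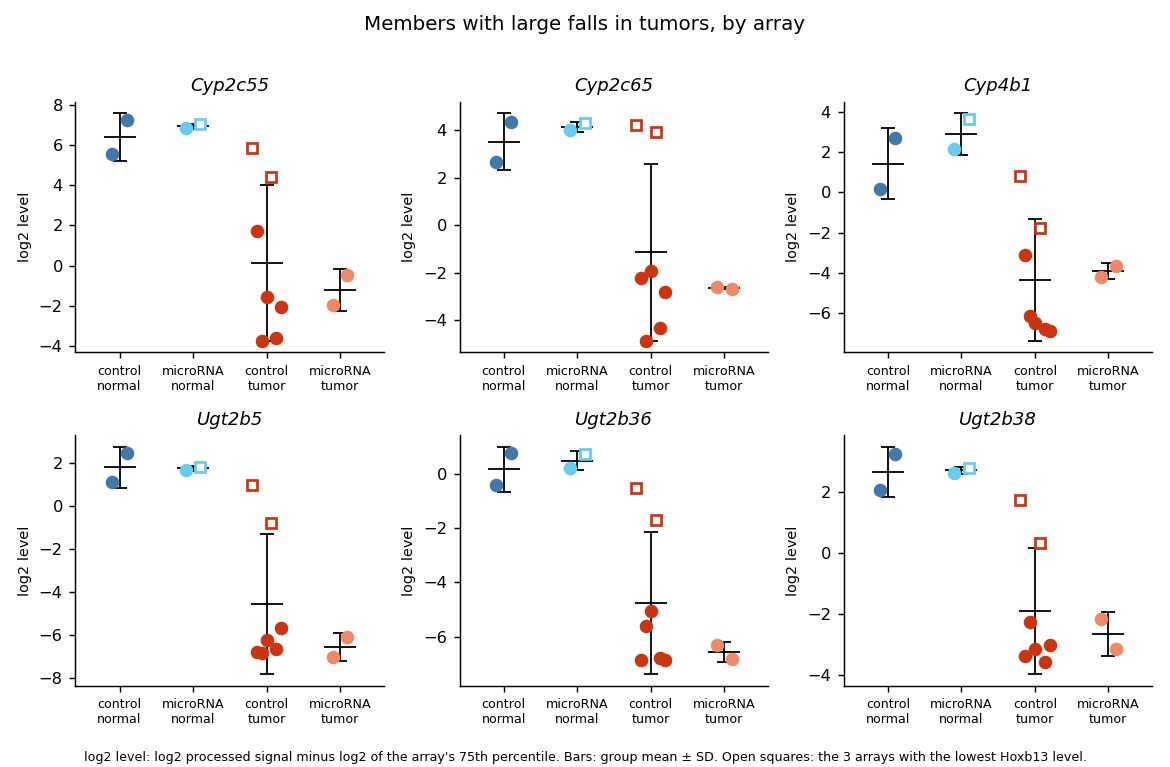
Levels (log2 relative to the array's 75th percentile, vertical axis) of 6 members with large falls in each array of the 4 groups; bars are the group mean ± SD and open squares are the 3 arrays with the lowest Hoxb13. In Ugt2b5, Ugt2b36 and Ugt2b38 the 2 open squares among control tumors are the highest tumors, and in Cyp2c55 and Cyp2c65 they lie among or near the normal arrays.

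Of the 7 measured sulfotransferases, 6 were lower in tumors. Sult1a1 is the main phenol sulfotransferase, and its levels were 6.55 and 7.15 in control normal tissue and 6.77 and 6.67 in microRNA normal tissue. In tumors it ran from -0.49 through a median of 2.33 to 4.87, below every normal array (6.79 ± 0.26, SD, n = 4, against 2.44 ± 1.85, SD, n = 9). The difference was -4.24 (SE 0.93, limma adjusted p = 0.00635). Sult1d1, which acts on catecholamines and other amines, was 4.54, 5.35, 5.18 and 4.33 in normal tissue and -2.33, 0.67 and 3.43 (lowest, median, highest) in tumors (-4.28, SE 0.92, limma adjusted p = 0.00584). Sult1b1, a thyroid hormone and phenol sulfotransferase, was 4.71 to 5.51 in normal tissue and 1.40 to 4.46 in tumors (-1.94, limma adjusted p = 0.0137, and 0.0753 without control normal 2). Sult1c2 was 3.91 to 4.48 in normal tissue and -1.46 to 3.24 in tumors (-2.43, limma adjusted p = 0.0371). That call was lost without any 1 of control normal 1 or 2, microRNA normal 1, microRNA tumor 1 or 2, or control tumor 4 or 7, with adjusted p up to 0.145 (control normal 2), and with quantile normalization (0.0583).

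Sult2b1 and Sult4a1 spread less among tumors. Sult2b1, which sulfates cholesterol, was 2.87, 3.15, 4.40 and 4.00 in normal tissue and 0.93, 1.78 and 1.94 (lowest, median, highest) in tumors, with control tumors 1 and 5 at 1.94 and 1.92 (-1.88, SE 0.28, limma adjusted p = 0.00106). Sult4a1, best known as a brain protein, was 0.71, -0.79, -0.28 and -0.66 in normal tissue and -2.67 to -1.28 in tumors (-1.76, SE 0.32, limma adjusted p = 0.00287). Sult5a1 overlapped between the groups (-1.22, limma adjusted p = 0.125).

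Among the glutathione S-transferases, both Pi members, both Omega members, all 3 Theta members and 5 of 7 Mu members were lower in tumors, with Gstk1 and Gstz1, and none of the 4 Alpha members was called. Gstp2 is a Pi enzyme, the class that detoxifies many electrophiles, and it was 7.50, 8.11, 8.00 and 8.22 in the 4 normal arrays. Its tumors were tightly grouped at 6.25 to 7.00, median 6.48 (-1.42, SE 0.19, limma adjusted p = 0.000672), and Gstp1 fell by a like amount (-1.36, SE 0.25, limma adjusted p = 0.00278). Gsto2, an Omega enzyme that reduces dehydroascorbate, was -2.84, -2.50, -2.36 and -2.61 in normal tissue and -5.16, -4.37 and -3.93 in tumors, 3 of which were well above background (-1.89, SE 0.22, limma adjusted p = 0.000263). Gsto1 was 6.42 to 6.92 in normal tissue and 4.52 to 6.31 in tumors (-1.14, limma adjusted p = 0.0174, 0.0797 without control normal 2, and -0.65 with 0.146 under quantile normalization).

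Among the Mu enzymes, Gstm3 fell most, from 3.52, 4.81, 4.03 and 4.70 in normal tissue to -0.51, 0.55 and 3.15 (lowest, median, highest) in tumors (-3.31, SE 0.71, limma adjusted p = 0.00576). Its highest tumors were control tumors 1 (3.15) and 5 (2.90). Gstm1 was 5.34, 5.99, 5.36 and 5.92 in normal tissue and 3.05 to 4.73 in tumors (-1.84, SE 0.31, limma adjusted p = 0.0019). That probe is placed on chromosome 5 in the files, and a dimmer Gstm1 probe on chromosome 3 gave -1.78. Gstm2 was 4.83 to 5.35 against 2.39 to 4.43 (-1.61, limma adjusted p = 0.00858). The other 2 Mu genes lay on the other side of 0 without passing the test. Gstm5 was 1.60 to 2.51 in normal tissue and 2.18 to 5.15 in tumors (1.24, SE 0.46, limma adjusted p = 0.058), and Gstm7 differed by 0.69 (limma adjusted p = 0.45).

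Of the Theta enzymes, Gstt1 was 3.50, 3.50, 3.23 and 2.91 in normal tissue and 0.05, 1.43 and 2.13 in tumors (-1.86, SE 0.35, limma adjusted p = 0.00339). Gstt3 differed by -1.58, a call lost without control normal 2 (limma adjusted p = 0.0133 and 0.0649). The peroxisomal and mitochondrial Gstk1 differed by -1.73, with the same dependence (limma adjusted p = 0.00954 and 0.0566). Gstz1, an enzyme of tyrosine breakdown, had a small difference of -0.47 (limma adjusted p = 0.0231), which was lost without control normal 2 (0.126) or microRNA normal 1 (0.057) and with median scaling (0.191), and turned to 0.52 without scaling between arrays.

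The Alpha enzymes Gsta1 and Gsta2 conjugate lipid peroxidation products and are abundant in gut epithelium. Their probes, at chr9:78090411-78090470 and chr9:78178856-78178915 on mm9, matched at 46 of 50 overlapping bases, and capitals mark the differing ones, so the pair may read largely the same RNA.
Gsta1: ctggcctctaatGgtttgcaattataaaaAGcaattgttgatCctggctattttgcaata
Gsta2: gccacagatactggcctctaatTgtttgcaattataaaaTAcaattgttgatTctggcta
Gsta1 was 3.72, 4.11, 4.54 and 4.71 in normal tissue and 0.77, 2.51 and 4.93 (lowest, median, highest) in tumors, and the highest tumor, control tumor 1, lay above every normal array. The differences were -1.61 for Gsta1 (SE 0.67, limma adjusted p = 0.0836) and -1.56 for Gsta2 (SE 0.65, limma adjusted p = 0.0855), and without the 3 arrays of lowest Hoxb13 they were -2.05 (0.00878) and -1.98 (0.00791). Gsta3 differed by 0.27 (limma adjusted p = 0.51) and Gsta4 by -0.48 (0.194).

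**Figure D3:**
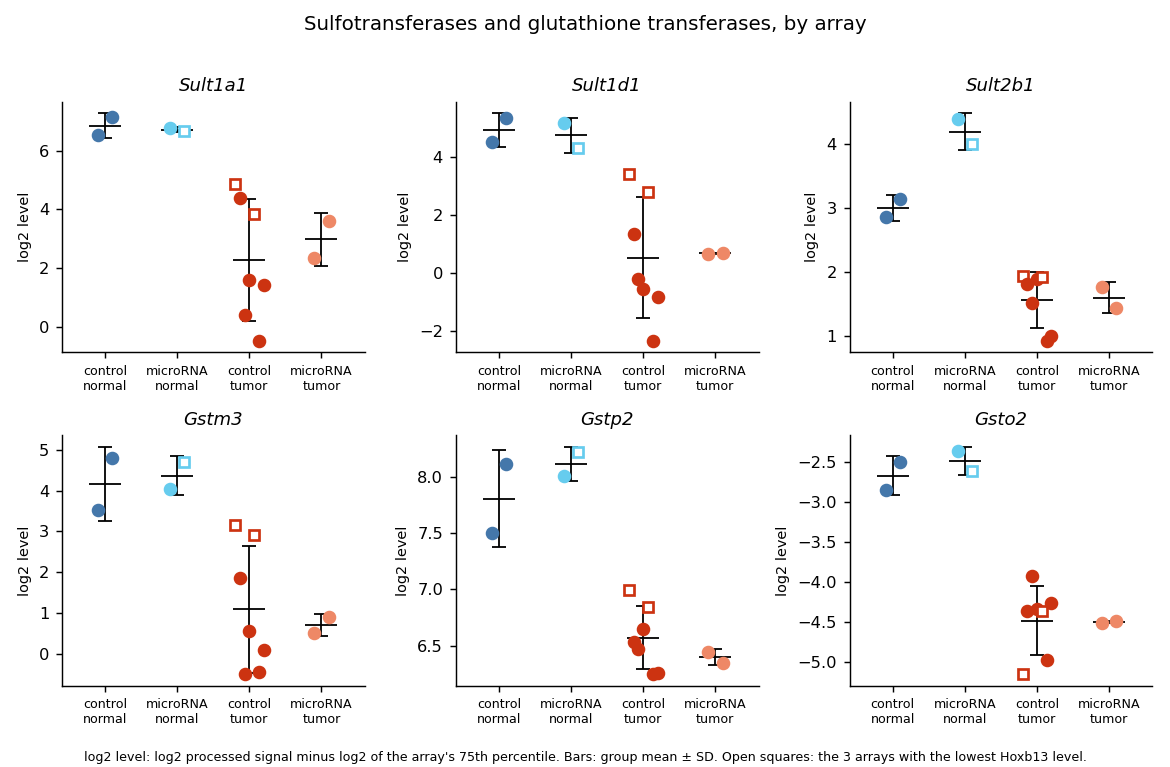
Levels (log2 relative to the array's 75th percentile, vertical axis) of 3 sulfotransferases and 3 glutathione S-transferases in each array of the 4 groups; bars are the group mean ± SD and open squares the 3 arrays with the lowest Hoxb13. All 9 tumors lie below all 4 normal arrays in each panel, widely spread in Sult1a1, Sult1d1 and Gstm3 and tightly grouped in Gstp2 and Gsto2.

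Among the P450 genes, the largest fall was that of Cyp2c55, in the Cyp2c cluster on chromosome 19. Cyp2c enzymes oxidize drugs and arachidonic acid, and Cyp2c55 is known as a colon enzyme. Its levels were 5.57, 7.23, 6.83 and 7.03 in normal tissue, and control tumor 1 (5.84) and control tumor 5 (4.42) were close to them, while control tumor 2 stood at 1.73 and the other 6 tumors between -3.75 and -0.47. The groups therefore overlapped, with means of 6.66 ± 0.75 (SD, n = 4) and -0.16 ± 3.43 (SD, n = 9). The fitted difference, with treatment held, was -6.99 (SE 1.72, limma adjusted p = 0.0107). The 2 high tumors were the ones with low Hoxb13. Without the 3 arrays of lowest Hoxb13 the difference was -8.19 (SE 1.05, limma adjusted p = 0.000929).

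Cyp2c65 and Cyp2c66, neighbours in the cluster, showed the same tumors high. Cyp2c65 was 2.65, 4.35, 3.98 and 4.28 in normal tissue, 4.21 and 3.91 in control tumors 1 and 5, and -4.87 to -1.94 in the other 7 tumors (-5.48, SE 1.64, limma adjusted p = 0.0249). That call was lost without control normal 2 (0.0858), microRNA normal 1 (0.0554) or microRNA tumor 2 (0.0537), and without the 3 arrays of lowest Hoxb13 the difference was -6.69 (0.000306). Cyp2c66 was 3.08, 4.71, 4.48 and 4.78 in normal tissue, 4.57 and 4.28 in control tumors 1 and 5, and -3.69 to -1.62 in the other tumors. Its difference was -5.39 (SE 1.57, limma adjusted p = 0.0222), a call lost without control normal 2 (0.0782) or microRNA normal 1 (0.0512). The RefSeq promoter windows of the pair, chr19:39060756-39061055 and chr19:39113648-39113947 on the plus strand of GRCm38.p6, matched at 198 of 288 aligned bases (68.8%). Capitals mark the match to the core of the antioxidant response element, TGACNNNGC, the letters through which Nrf2 is known to act, found on the minus strand as GCACAGTCA in both.
Cyp2c65: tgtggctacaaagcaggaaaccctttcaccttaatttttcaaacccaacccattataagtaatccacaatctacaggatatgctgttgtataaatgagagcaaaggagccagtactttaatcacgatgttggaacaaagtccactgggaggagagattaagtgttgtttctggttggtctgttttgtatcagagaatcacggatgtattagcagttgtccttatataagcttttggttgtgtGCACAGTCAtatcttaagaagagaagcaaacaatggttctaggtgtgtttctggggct
Cyp2c66: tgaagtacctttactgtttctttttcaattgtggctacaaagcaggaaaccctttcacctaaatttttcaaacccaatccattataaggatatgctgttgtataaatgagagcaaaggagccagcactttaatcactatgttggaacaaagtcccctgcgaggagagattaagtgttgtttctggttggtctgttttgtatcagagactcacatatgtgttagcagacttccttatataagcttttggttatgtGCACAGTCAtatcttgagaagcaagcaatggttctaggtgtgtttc

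Elsewhere in the cluster the order of the arrays was different. Cyp2c29 was 2.97, 2.49, 2.17 and 0.78 in normal tissue and -3.26 to 1.60 in tumors, a difference of -2.41 (limma adjusted p = 0.029) that was lost without control normal 1 (0.133), control normal 2 (0.118) or microRNA normal 1 (0.0562), and 0.0998 with the slide as a block. Cyp2c67 was 4.33, 3.63, 3.49 and 0.58 in normal tissue, where the low value is the microRNA array of low Hoxb13, and -1.39 to 3.46 in tumors (-1.98, limma adjusted p = 0.129). In control tumors 1 and 5, high for Cyp2c55, Cyp2c67 stood at -0.21 and -0.91. In all, 4 of 12 measured Cyp2c genes were lower in tumors, 8 of 12 without the 3 arrays of lowest Hoxb13, and 1 of 12 without control normal 2.

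All 7 measured Cyp3a genes, the subfamily best known for breaking down drugs and steroids, were called lower in tumors. Cyp3a44, Cyp3a57 and Cyp3a59, however, passed the filter through 3 normal arrays alone. Cyp3a16 and Cyp3a25 were well above background on 3 normal arrays and 1 tumor, so they too passed only through normal tissue. The place of these genes in the count is no support for it, and only Cyp3a11 and Cyp3a13 could have passed on tumor arrays. Levels in normal tissue spread widely. Cyp3a25 was -4.95 and -2.48 in control normal tissue and 1.67 and -0.13 in microRNA normal tissue, and in tumors it ran from -6.72 through a median of -6.52 to -3.50, where 1 of 9 arrays was well above background (-4.09, SE 0.91, limma adjusted p = 0.00713). Cyp3a44 was -4.93, -1.98, -0.41 and -1.51 in normal tissue and -7.36 to -6.50 in tumors, none of them well above background. It was at least 21.1-fold higher in normal tissue (limma adjusted p = 0.000499), a bound against, on each tumor array, the higher of its own signal and the dimmest signal well above background. Cyp3a57 and Cyp3a59 were also not well above background in any tumor, and the same bounds between plain means were 10.4-fold and 9.70-fold. The fit, which held treatment, gave smaller log2 differences of -3.25 and -3.00, so these 2 bounds are no minimum of the fitted difference. Its limma adjusted p was 0.00915 for Cyp3a57 and 0.0153 for Cyp3a59, the latter 0.0529 without control normal 2. In control mice alone the bounds were 9.01-fold for Cyp3a44, 3.34-fold for Cyp3a57 and 2.34-fold for Cyp3a59 (limma adjusted p = 0.00466, 0.112 and 0.2). The normal means behind all these bounds include control normal 1, which was not well above background for any of these genes.

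Cyp3a11 was 0.69 in control normal 1 and -3.17, -2.29 and -2.60 in the other normal arrays, against -4.98 to -3.61 in tumors (-2.68, SE 0.57, limma adjusted p = 0.00547). Cyp3a13 had a different order, with 1.98 in control normal 1, 3.48, 3.72 and 3.81 in the other normal arrays, 2.19 and 2.03 in control tumors 1 and 5 and -1.59 to 1.39 in the other tumors (-2.85, SE 0.72, limma adjusted p = 0.0121, and 0.0600 without control normal 2). Cyp3a16 stood at -6.27, -2.83, -2.30 and -3.46 in normal tissue and, apart from control tumor 2 (-3.87), at -7.31 to -6.45 in tumors. Without control normal 2, 4 of the 7 Cyp3a genes were called, and on slide 2 alone, on slide 1 alone and with the replicate number as a block 1 of 7 was.

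Small intestine markers were lower in tumors as well, and within normal tissue they ran with some of the Cyp3a genes and not with others. The mean level of the 10 measured markers was -1.36 to -0.39 in control normal tissue, 3.08 to 4.03 in microRNA normal tissue, -4.02 to -1.07 in control tumors and -3.29 to -3.10 in microRNA tumors, and 9 of 10 were lower in tumors. Fabp6, the bile acid binding protein of the ileum, was higher in microRNA than in control normal tissue by 6.89 (limma adjusted p = 0.0136) and differed by -5.54 between tumors and normal tissue over both groups (limma adjusted p = 0.00452). Of the 7 Cyp3a genes, all but Cyp3a11 and Cyp3a16 were higher in both microRNA normal arrays than in both control normal arrays. Cyp3a11 was highest (0.69) in control normal 1, where the marker mean was lowest (-1.36). The part of small intestine cells in the Cyp3a levels was not tested.

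**Figure D4:**
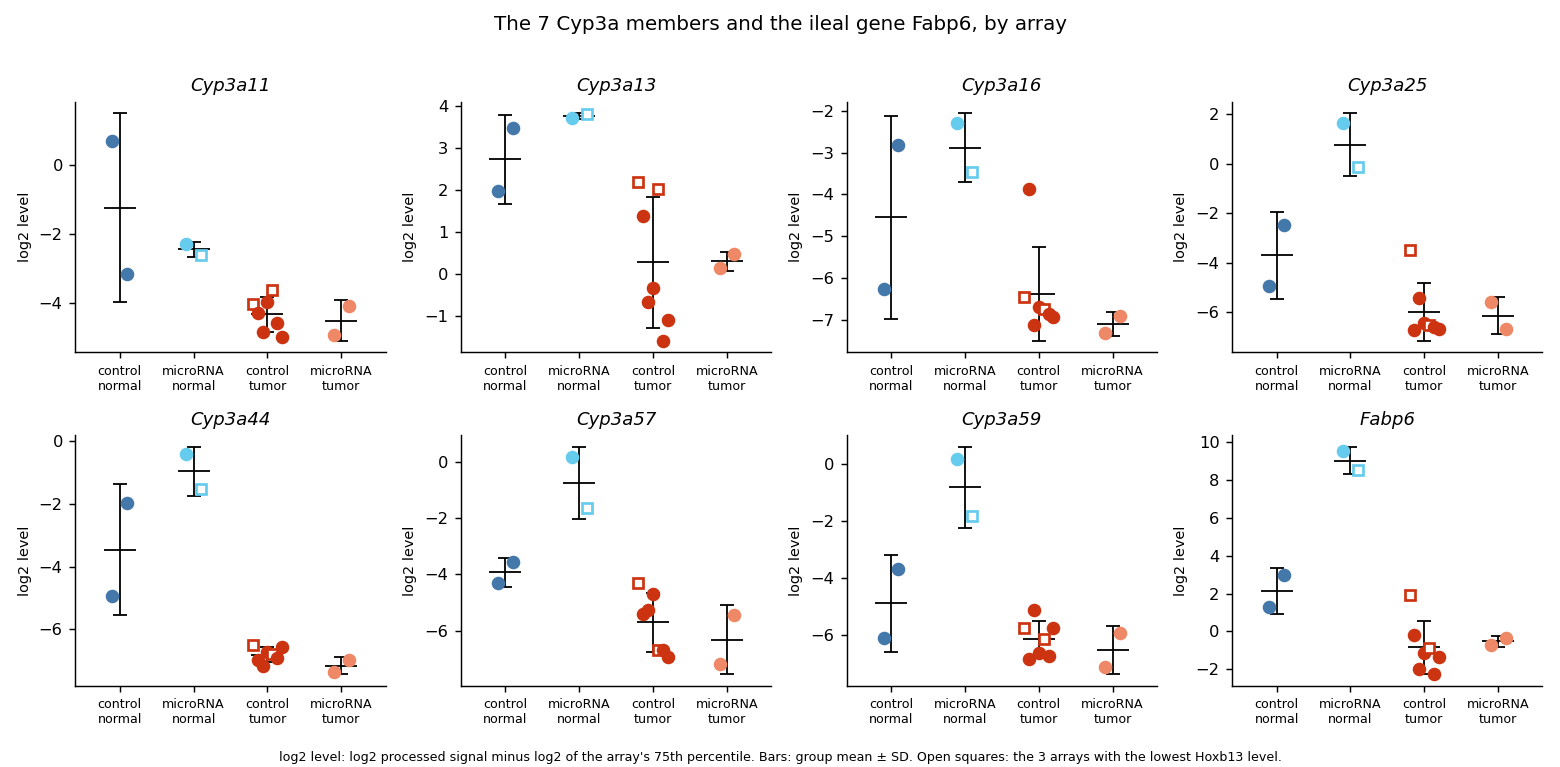
Levels (log2 relative to the array's 75th percentile, vertical axis) of the 7 measured Cyp3a genes and of the ileal marker Fabp6 in each array of the 4 groups; bars are the group mean ± SD and open squares the 3 arrays with the lowest Hoxb13. Cyp3a13, Cyp3a25, Cyp3a44, Cyp3a57, Cyp3a59 and Fabp6 are higher in both microRNA normal arrays than in both control normal arrays, and Cyp3a11 and Cyp3a16 are not.

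Outside the Cyp2c and Cyp3a genes, the largest fall among P450 genes was that of Cyp4b1. Cyp4b1, a fatty acid hydroxylase, was 0.18, 2.67, 2.15 and 3.61 in normal tissue and -6.88, -4.18 and 0.81 (lowest, median, highest) in tumors, of which 5 of 9 were well above background (-6.17, SE 1.37, limma adjusted p = 0.00684). Control tumor 1 (0.81) was again the highest tumor, followed by control tumor 5 (-1.78). Cyp4f14, which acts on leukotriene B4, was 2.90, 4.21, 5.18 and 5.03 in normal tissue and -1.80 to 3.24 in tumors (-3.16, limma adjusted p = 0.0249). Its call was lost without control normal 2 (0.0921), microRNA normal 1 (0.0578) or microRNA tumor 1 (0.0523). In the Cyp4f subfamily 5 of 8 measured members were lower (median -0.97), and 1 of 8 without control normal 2. None of the 3 measured Cyp4a genes was called.

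Cyp2s1, an enzyme of barrier epithelia that is induced by dioxin, was 5.11, 4.97, 5.40 and 5.36 in normal tissue and -0.11, 2.25 and 3.87 in tumors, with no overlap (-2.98, SE 0.70, limma adjusted p = 0.00861). Cyp2e1, which oxidizes ethanol and small solvents, was -2.30, -0.26, 0.70 and 0.50 in normal tissue and -4.00 to -2.21 in tumors (-2.33, SE 0.44, limma adjusted p = 0.00339). Cyp2d26 was 3.58, 4.93, 5.02 and 5.40 in normal tissue, 4.80 and 4.90 in control tumors 1 and 5, and 0.18 to 2.29 in the other 7 tumors (-2.93, SE 0.95, limma adjusted p = 0.0338). Its call was lost without control normal 2 (0.107), either microRNA normal array (0.0728 and 0.0675), either microRNA tumor (0.0702 and 0.065) or control tumor 4 or 7 (0.0504 and 0.0503), and with quantile normalization (0.0511), and without the 3 arrays of lowest Hoxb13 the difference was -3.50 (0.00144). Of the 10 measured Cyp2d genes, 4 were lower, and none (0 of 10) without control normal 2.

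Smaller falls without overlap between the groups were those of Cyp2j9 (-1.80, SE 0.46, limma adjusted p = 0.0131, and 0.0626 and 0.0604 without control normal 1 or 2) and Cyp46a1, a cholesterol hydroxylase (-0.81, SE 0.20, limma adjusted p = 0.012, 0.0582 with median scaling, and a difference of 0.18 without scaling between arrays). Cyp2j11-ps passed the filter through the 2 microRNA normal arrays alone, with both control normal arrays (-4.92 and -4.48) not well above background either. Its bound between plain means was 3.13-fold higher in normal tissue. The fit, which held treatment, gave a smaller log2 difference of -1.45 (limma adjusted p = 0.00979), so the bound is no minimum of it. Cyp51, the sterol demethylase of cholesterol synthesis, stood at -0.25 to 0.77 in normal tissue and 0.18 to 1.00 in tumors (0.21, SE 0.22, limma adjusted p = 0.483). The oxysterol hydroxylase Cyp7b1 (0.73, limma adjusted p = 0.128), the retinoic acid hydroxylase Cyp26b1 (-0.83, 0.0895) and the dioxin-induced Cyp1b1 (-0.28, SE 1.10, 0.86) did not pass the test. For Cyp1b1, control tumors 1 and 5 stood at -1.46 and -0.50 and the other tumors at -6.79 to -4.62. Only those 2 tumors and microRNA normal 1 were well above background for it.

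Only 3 members were higher in tumors. Cyp21a1, the steroid 21-hydroxylase of the adrenal cortex, was -3.34, -3.30, -3.24 and -3.11 in normal tissue and -1.15, -0.40 and 0.93 (lowest, median, highest) in tumors. Every tumor lay above every normal array, with means of -3.25 ± 0.10 (SD, n = 4) and -0.25 ± 0.68 (SD, n = 9). The difference was 3.14 (SE 0.33, limma adjusted p = 0.000127). The probe lies at chr17:34938298-34938357 on mm9, and since the mouse genome holds a near-identical pseudogene of this enzyme beside it, the sequence is given as designed.
Cyp21a1: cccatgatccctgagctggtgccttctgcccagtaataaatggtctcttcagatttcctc
Whether it reads the gene or that copy was not tested.

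The remaining rises overlapped with normal tissue. Cyp2b10, the classic target of the constitutive androstane receptor, was -2.91 and -4.18 in control normal tissue and -4.21 and -6.11, not well above background, in microRNA normal tissue. Control tumors 1 and 5 stood at -5.45 and -3.66 and the other 7 tumors at -1.23 to 1.24. The difference was 3.39 (SE 1.21, limma adjusted p = 0.0482), and 3.91 (SE 0.50, 0.000888) without the 3 arrays of lowest Hoxb13. Its call was lost with normexp (0.066) or without any 1 array other than control tumors 1 and 5, with adjusted p up to 0.13 (control normal 2). Cyp27a1, which hydroxylates cholesterol and bile acid precursors, was -3.16, -3.13, -3.51 and -3.56 in normal tissue and -3.63 to -0.28, median -1.80, in tumors (1.58, SE 0.55, limma adjusted p = 0.0464), and 1.97 (0.00476) without the 3 arrays of lowest Hoxb13. The call for Cyp27a1 was likewise lost without any 1 array other than control tumors 1 and 5, with adjusted p up to 0.115 (control normal 2), with normexp, where the difference was 0.54 (0.239), with quantile normalization (0.051) and with the slide as a block (0.0527).

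**Figure D5:**
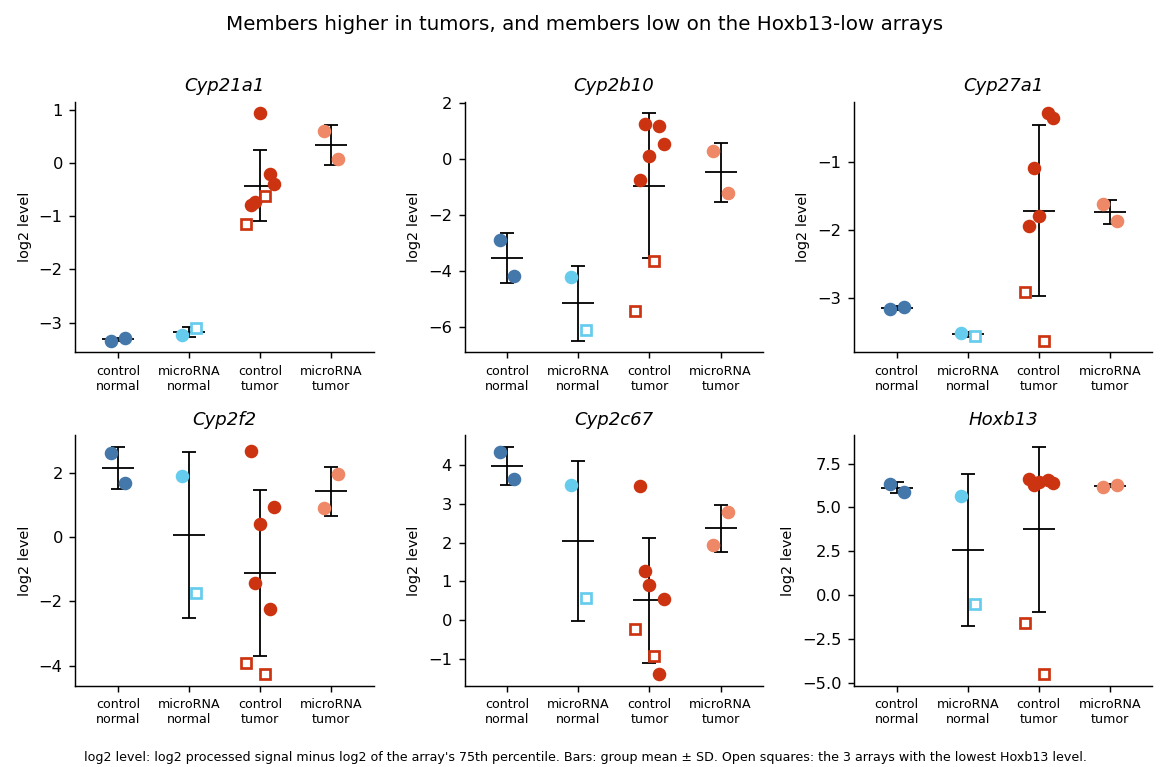
Levels (log2 relative to the array's 75th percentile, vertical axis) of the 3 members that were higher in tumors, of Cyp2f2 and Cyp2c67 and of the distal colon gene Hoxb13 in each array of the 4 groups; bars are the group mean ± SD and open squares the 3 arrays with the lowest Hoxb13. In Cyp2b10, Cyp2f2 and Cyp2c67 the open squares are the lowest or among the lowest of their group, and in Cyp21a1 all tumors lie above all normal arrays.

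Cyp2f2, an enzyme that activates naphthalene, was -1.75 in microRNA normal 2 against 2.61, 1.69 and 1.90 in the other normal arrays, and -3.92 and -4.27 in control tumors 1 and 5 against -2.24 to 2.66 in the other tumors (tumor difference -1.47, limma adjusted p = 0.43). Without these 3 arrays 68 members were lower and 3 higher, and 57 of the 58 reported calls were kept. Region along the colon and sample cannot be told apart here, because no label gives the site of a sample.

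The genes that supply and regulate these enzymes were taken from lists. Of 10 genes that supply the cofactors of conjugation, 7 were lower and none higher (median -1.15), among them Ugdh, which makes UDP-glucuronic acid (-3.32, SE 0.59, limma adjusted p = 0.00265), and Papss1 and Papss2, which make the sulfate donor (-1.05 and -2.38, limma adjusted p = 0.00128 and 0.00531). Of 6 measured electron donors of P450, 5 were lower (median -0.81), including Por, the reductase of microsomal P450 enzymes (-1.02, limma adjusted p = 0.0228), and the mitochondrial pair Fdx1 (-0.94, 0.00303) and Fdxr (-0.81, 0.00452). Of 14 xenobiotic and bile acid receptors and gut transcription factors, 11 were lower (median -1.47), with Ppara, the fatty acid receptor, at -3.19 (limma adjusted p = 0.00578) and Hnf4a at -1.40 (0.00917). Of 31 other oxidation, hydrolysis and conjugation enzymes, 24 were lower and none higher (median -2.10), such as the epoxide hydrolase Ephx2 (-2.34, limma adjusted p = 0.000957) and the monoamine oxidase Maoa (-2.84, 0.00177).

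Transporters and stress pathway genes were mixed. Of 14 measured efflux and organic solute transporters, 7 were lower and 1 was higher (median -0.97): the organic anion pump Abcc4 rose by 2.19 (limma adjusted p = 0.000548), while Abcc3 (-2.39, 0.008) and Abcb1b (-2.36, 0.00757) fell. In the aryl hydrocarbon receptor list 1 of 7 was higher and 3 were lower (median -0.47), with the receptor Ahr at 0.79 (limma adjusted p = 0.0132) and its repressor Ahrr at -2.12 (0.00733). In the Nrf2 list 1 of 13 was higher and 6 were lower (median -0.51). The cystine carrier Slc7a11 was the one that rose (4.02, limma adjusted p = 0.00123), and Nqo1, which is in both lists, fell (-2.85, 0.0133).

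The promoter windows of members were searched on both strands for the cores of the elements these pathways use. Of the 103 measured members, 102 had a RefSeq symbol and 81 had at least 1 window, 98 windows in all. The antioxidant response element core, TGACNNNGC, was in 8 of 98 windows (8.16%) against 12.4% of all 32851 windows, and the xenobiotic response element core, TNGCGTG, was in 3 (3.06%) against 5.07%. The former was found at Cyp2c65, Cyp2c66, Cyp2j6, Cyp4f14, Cyp4f18, Gsta3, Gstm5 and Gstm7, and the latter at Cyp2c68, Gsta2 and Sult1d1. These matches are of letters only.

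The tumor effect was then taken in each group of mice. In control mice 31 members were lower and 3 higher in tumors (all genes 10.9% lower and 8.18% higher). The higher ones were Cyp21a1, Cyp4a10 (0.91, limma adjusted p = 0.046) and Cyp4f41-ps (0.75, 0.039). Neither Cyp4a10 nor Cyp4f41-ps was well above background on control normal 1. The Cyp4a10 probe also matched that of Cyp4a31, which was not called, at 44 of 47 overlapping bases. That total of 34 was 4 without control normal 2, 7 without control normal 1, 16, 18 and 21 without control tumor 7, 4 and 6, and 11 with the slide as a block. In microRNA mice, with 2 arrays of each tissue, 12 members were lower and 1 was higher (1.73% and 1.39% of all genes). The 12 were Cyp2d40, Cyp2e1, Cyp3a25, Cyp3a44, Cyp3a57, Cyp3a59, Cyp4f16, Gstm1, Gsto2, Gstp1, Gstp2 and Sult2b1, and the higher one was Cyp21a1 (3.52, limma adjusted p = 0.0061). Of the 12, Cyp3a25, Cyp3a44, Cyp3a57 and Cyp3a59 passed the filter only through normal tissue, so their place in this count is no support for it. The total of 13 was 2 without microRNA normal 1 or microRNA tumor 1, 6 without microRNA normal 2 and 7 without microRNA tumor 2. Cyp3a44, Cyp3a57 and Cyp3a59 were at least 47.9-fold, 35.8-fold and 41.1-fold higher in microRNA normal tissue than in microRNA tumors (limma adjusted p = 0.00146, 0.0116 and 0.00607). Cyp3a25 was 121-fold higher (limma adjusted p = 0.00843), but that was the measured ratio itself and so is no minimum. None of these genes was well above background in either microRNA tumor. These comparisons contrast different arrays but share 1 estimate of the spread from all 13, and their call counts do not show that the effects differ.

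No member passed the test for the difference between those tumor effects, where 0.279% of all genes were called (limma, and 12 members at an unadjusted p under 0.05). The members with the smallest p were Cyp3a59 (-4.48, SE 1.09, adjusted p = 0.228), Cyp2d40 (-2.08, 0.372) and Cyp4f41-ps (-1.21, 0.478). Without control normal 2, 1 member was called.

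The question of the microRNA treatment was whether it moved these genes within a tissue. In normal tissue no member was called with limma (10 at an unadjusted p under 0.05, and 0.531% of all genes called). The smallest p-values were those of Cyp3a59 (4.08, SE 0.85, adjusted p = 0.0748), Cyp3a25 (4.48, SE 1.09, 0.175) and Cyp3a44 (2.49, SE 0.70, 0.336), all higher in microRNA mice, and 3 members were called without control normal 2 and 1 without control tumor 1. Small intestine markers were higher in the same arrays (5 of 10 called), and 6 of 8 squamous epithelium markers were lower, at a mean of -0.03 to 1.83 in control and -3.70 to -3.53 in microRNA normal tissue. In tumors no member was called either, with none at an unadjusted p under 0.05 (limma, 0.00393% of all genes). The smallest p-values were those of Cyp2d40, Gstm1 (-0.72) and Cyp21a1 (0.77), each with an adjusted p of 0.9996. Cyp2d40 was not well above background in either microRNA tumor. Its bound, 1.65-fold higher in control tumors, was the measured ratio itself and so is no minimum.

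Of the 150 genes, 47 did not pass the filter, 39 of them with no array and 8 with 1 array well above background. They included the dioxin-induced Cyp1a1 and Cyp1a2, the bile acid enzymes Cyp7a1 and Cyp8b1, the vitamin D hydroxylase Cyp24a1, the steroid enzymes Cyp11a1 and Cyp19a1, the estrogen sulfotransferase Sult1e1 and the bile acid sulfotransferase Sult2a1. A signal that is not well above background does not show that a gene was silent. Among members that passed, 24 had more than 1 passing probe, and in 3 of these (Cyp2j13, Cyp2r1 and Ugt2b35) the probes differed in the sign of the tumor difference.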

How the data were processed

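RNA of 13 tissue samples was measured on 1-colour Agilent arrays, from 35 ng of total RNA labelled with Cy3 per the labels' protocols. Per the file headers, the authors used Feature Extraction 10.7.3.1; its processed signal, a linear intensity after background subtraction with no scaling between arrays, is what they deposited. The values of the series as a whole, deposited separately, were the same (largest relative difference 0). Probe positions are those printed in the files, on mm9. Precision is limited by the number of arrays, 50.7% to 57.0% of whose probes were well above background.

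Control spots (3671) were left out, and spots of a probe were averaged, which gave 55681 probes. Levels are log2 intensity minus the array's own log2 75th percentile. Probes well above background on at least 2 of 13 arrays (35214) were kept, and the brightest represented its gene. Differences were tested with limma 3.58.1 (lmFit, eBayes) fitted to all 13 arrays, in R 4.3.3, where files were read by version 1.17.8 of data.table. Tissue and treatment as additive terms gave the comparison of tumors over both groups; the other contrasts came from a model of 4 group means. Benjamini-Hochberg adjusted p-values under 0.05 over all genes were called. A gene whose dim group had no array well above background is given as "at least" a fold, from the brighter group's mean over all its replicates against the lowest signal well above background on each dim array, or the dim probe's own signal where that was higher. Such a bound uses plain means. Over both groups of mice it does not hold treatment, so it can exceed the fitted difference. The difference between tumor effects is given as fitted. The procedure was tested on simulated data. Python 3.11.15 with matplotlib 3.10.9 drew the figures.

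Full statistics are given for up to 6 members per family and direction with the largest called change and no overlap between tissues, the 3 members of smallest p in each microRNA contrast and in the difference between tumor effects, and a fixed set of known enzymes. Cyp2b10, Cyp2c29, Cyp2c66, Cyp2c67, Cyp2f2, Cyp3a16, Cyp3a57, Cyp4a10, Gstm5, Gstm7, Gstp2, Sult5a1, Ugt1a10 and Ugt2b35 fall outside that rule and were chosen after their values were seen. Genes outside the members come from marker and pathway lists, up to 4 per list by smallest p. The members and lists were chosen with earlier results of these data known. Alternatives were normexp with an offset of 50, quantile, median and no scaling, no filter and a filter by group, the mean of probes, trended robust eBayes, the compared groups alone, the slide as a block and each slide alone, the replicate block, and each array left out. Promoter windows are RefSeq's on GRCm38.p6.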

Additional observations from a re-analysis of the deposited data

Results flagged for a closer look

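Of 103 members tested for 1 array far from the other 6 control tumors, 5 had such an array, and chance alone gives about 1 in 20. Cyp3a25 was -3.50 in control tumor 1, with the nearest other control tumor at -5.45. Cyp3a16 was -3.87 in control tumor 2, with the nearest at -6.45, and Cyp4a12b was -2.76 in the same tumor, with the nearest at -5.28. Cyp2t4 was -3.35 in control tumor 3, with the nearest at -2.19. Cyp4a31 was -5.15 in control tumor 6, with the nearest at -4.23. The values are log2 levels relative to each array's 75th percentile, and their causes were not tested.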

How the results depend on the processing

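Over both groups of mice, 55 members were lower in tumors and 3 higher. The count of lower members was 26 without scaling between arrays, 1 on slide 1 alone, 30 without the arrays with Xist signal (an alternative chosen after seeing the data) and 29 to 58 when each array was left out. The count of higher members was 5 with quantile normalization, the mean of probes or the slide as a block, 17 without scaling, 0 on slide 1 alone, 1 without the arrays with Xist signal and 1 to 4 when each array was left out. In control mice the 34 calls became 55 with normexp, 11 with the slide as a block and 4 to 46 when each array was left out. In microRNA mice the 13 calls became 25 with normexp, 32 with the compared groups alone, 1 on slide 1 alone, 8 on slide 2 alone and 2 to 19 when each array was left out. The microRNA contrast in normal tissue had 0 calls, 1 with normexp or no filter and 0 to 3 when each array was left out. The difference between tumor effects had 0 calls, 1 with no filter and 0 to 1 when each array was left out. The microRNA contrast in tumors had 0 calls in every alternative run.

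Samples of the same replicate number correlated in their deviations from the group means at -0.19 to 0.42, and the labels do not say that the number pairs them. With the replicate number as a block, 28 members were lower and 1 higher, with 2 calls in control mice and 23 in microRNA mice. A random block for the numbers that file names carry, which no label explains (added after seeing the data; consensus correlation 0.346) gave 5 higher members and 24 calls in microRNA mice.

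Of the 58 called members, 53 to 56 kept their call with normexp, quantile or median scaling, 30 without control normal 2 and 57 without the 3 arrays of lowest Hoxb13 (added after seeing the data). Signs reversed without scaling for Cyp46a1 (0.18), Gstz1 (0.52), Cyp4f16 (0.11), Cyp4f17 (0.10) and Gstm6 (0.094), and on slide 1 alone for Cyp2d10 (0.016). The causes were not tested. Signals near background limit what the falls of Ugt2b5, Ugt2b36, Ugt2b37, Ugt8a and most Cyp3a genes measure.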
